A study of Danio rerio with 4 samples.

Results

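The immediate early response genes are 10 zebrafish genes, listed by name, whose RNA is known to appear within minutes of a stimulus such as wounding or growth factor signalling: fosab, fosb, jun, junba, junbb, atf3, egr1, klf2a, ier2 and gadd45ba. They were looked up by symbol among the 32538 rows of a table of RNA levels. The exact symbol was found for 8 of them; fosab stood in the table as fos, an older name, and ier2 as IER2, under a gene ID whose current symbol is ier2b. In RefSeq, ier2 is an older name of a paralog, ier2a, for which no row was found, so the values given here for ier2 are those of ier2b and may not be those of the listed gene. RNA had been measured in 4 libraries from embryos at the stage of 6 somites (12 h of development), 2 from tbx1 mutants carrying the vgo allele, which the labels call null, and 2 from wild-type controls. In all 4, the tail tip and some of the nearby yolk had been cut off for genotyping before the rest of the embryo went into Trizol, and polyadenylated RNA was sequenced. Whether the controls came from the same clutches, and how many embryos went into a library, is not in the labels; the spread between libraries, and with it each p-value, may therefore be technical. Libraries of each genotype are numbered 1 and 2, and no label gives the number a meaning.

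Immediate early genes are transcribed from factors already present in the cell, without new protein synthesis. Extracellular signals reach them through MAP kinases, which act on serum response factor, its ternary complex partners and CREB. Many of their products are transcription factors. Fos and Jun proteins pair through leucine zippers to form AP-1, and Atf3 can pair with Jun proteins. Egr1 is a zinc finger factor, and phosphatases of the Dusp family are induced in the same wave and switch the kinases off. In zebrafish, cutting of tissue is known to switch on several of these genes at the wound edge. In an RNA sample of a whole embryo, more cells that express a gene and more RNA per cell cannot be told apart.

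Values are FPKM, sequenced fragments scaled to transcript length and to library size, so that levels can be compared between genes as well as between libraries. The members counted 9 among the 13448 genes that averaged 1 FPKM or more and had a valid estimate in each library; fosb stayed below that level. Read totals were not given. Depth was estimated from the most common ratio to control 1 among genes with a low product of mean FPKM and locus length. This put the depth of mutant 1, mutant 2 and control 2 at about 0.826, 0.719 and 0.841 of that of control 1. The estimate is rough, since that ratio held for 55 of 652 such genes in mutant 1, 80 of 567 in mutant 2 and 113 of 566 in control 2. tbx1 itself stood at 4.91 and 4.52 FPKM in the mutants, against 9.08 and 9.14 FPKM in the controls. Markers of paraxial mesoderm, tailbud, neural plate, periderm, yolk syncytial layer and blood were present in all libraries. Of 5 myeloid genes matched, mpx was listed at 0 in 3 libraries and mpeg1 in all.

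Of the Fos genes, fosab was abundant and fosb scarce. fosab, which encodes the zebrafish counterpart of c-Fos (ENSDARG00000031683, Zv9 chromosome 20 from 46803307 to 46805437), stood at 38.6 FPKM in mutant 1 and 7.58 FPKM in mutant 2, against 16.2 FPKM in control 1 and 11.7 FPKM in control 2. Mutant 1 was thus the highest library and mutant 2 the lowest, with both controls between them. The means were 23.1 ± 22.0 FPKM in mutants and 13.9 ± 3.19 FPKM in controls (SD, n = 2 each), so the spread between the mutants was larger than the difference between genotypes. The authors' 95% bounds for fosab, deposited for each library, did not overlap between any of the 4 libraries. Over all genes tested, 26.0% of values lay outside their own bounds, so the bounds of members are given as description only. For fosab they ran from 36.3 to 41.1 FPKM in mutant 1, from 6.81 to 8.38 FPKM in mutant 2, from 15.0 to 17.4 FPKM in control 1 and from 10.8 to 12.6 FPKM in control 2. fosb, a second Fos gene (chromosome 18 from 35109605 to 35119433), was close to the limit of detection at 0.334 and 0.204 FPKM in mutants 1 and 2, against 0.196 and 0.165 FPKM in controls 1 and 2. Both mutants lay above both controls, but the 4 deposited intervals overlapped.

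Jun genes among the members had the same top and bottom library as fosab, by different amounts. jund, which is not a member, was highest in mutant 2 (0.914 FPKM) and lowest in control 2 (0.661 FPKM). junba, a JunB gene (ENSDARG00000074378, chromosome 1 from 52226931 to 52228476), had the widest range of any member. It stood at 21.1 and 3.12 FPKM in mutants 1 and 2, against 8.36 and 5.53 FPKM in controls 1 and 2. Mutant 1 held 6.76 times the junba level of mutant 2, while control 1 held 1.51 times that of control 2. Its paralog junbb (ENSDARG00000088371, chromosome 3 from 8434975 to 8436624) had 26.0 and 9.69 FPKM in mutants 1 and 2, against 16.5 and 12.2 FPKM in controls 1 and 2. All 4 deposited junbb values lay outside their own 95% interval, which was so for 26.0% of the values of all genes tested, so its bounds are not used here. jun (ENSDARG00000043531, chromosome 20 from 15558571 to 15560457), the counterpart of c-Jun, varied least among the AP-1 genes tested, at 17.8 and 12.7 FPKM in mutants 1 and 2, against 14.8 and 13.9 FPKM in controls 1 and 2.

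The makeup of the Fos and Jun RNA pools also differed between the libraries. fosaa and fosl1b were left out of the Fos pool. Both stayed below 1 FPKM in each library, but so did fosb and jund, which were kept in the pools. fosab was the main Fos gene throughout, at 84.7% and 72.4% of the summed FPKM of fosab, fosb, fosl1a and fosl2 in mutants 1 and 2, against 82.6% and 78.7% in controls 1 and 2. Among jun, junba, junbb and jund, the share of junba was 32.0% in mutant 1 and 11.8% in mutant 2, against 20.6% in control 1 and 17.1% in control 2. The share of jun was 27.1% and 48.0% in mutants 1 and 2, against 36.5% and 43.1% in controls 1 and 2. The share of junbb stayed between 36.7% and 40.7%. Fos RNA amounted to 0.693 and 0.396 of Jun RNA in mutants 1 and 2, against 0.483 and 0.460 in controls 1 and 2. Each of these is a value of single libraries with no test.

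atf3 was the member in which mutant 1 stood furthest from the other libraries. This stress-induced factor of the ATF/CREB family (ENSDARG00000007823, chromosome 20 from 37819240 to 37825345) had 6.91 and 1.49 FPKM in mutants 1 and 2, against 1.71 and 2.35 FPKM in controls 1 and 2. Mutant 1 exceeded the next library, control 2, by 2.94-fold, and its deposited interval of 6.28 to 7.57 FPKM lay above those of the other libraries. Unlike fosab and the Jun genes, atf3 was lower in control 1 than in control 2.

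**Figure D1:**
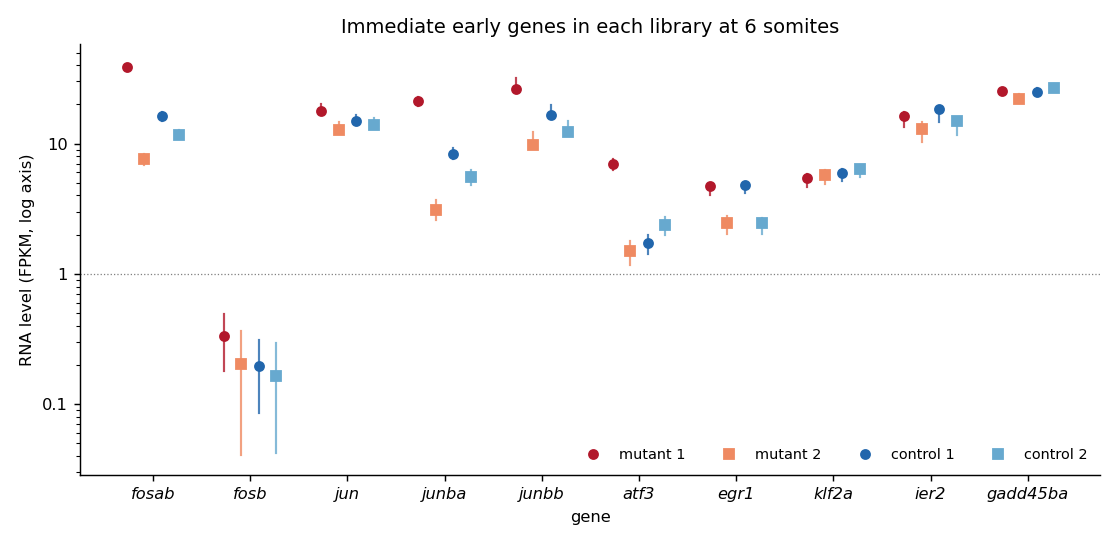
RNA level of each immediate early gene (FPKM, log axis) in the 2 tbx1 mutant libraries (red, orange) and the 2 control libraries (blue tones), with circles for number 1 and squares for number 2. Bars are the authors' 95% bounds, the dotted line is 1 FPKM, and mutant 1 stands above the other libraries for fosab, junba, junbb and atf3, while junbb values lie below their own bounds.

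The zinc finger gene egr1 had nearly equal values in libraries of the same number. egr1, a target of MAP kinase signalling (ENSDARG00000037421, chromosome 14 from 22333788 to 22337652), had 4.72 FPKM in mutant 1 and 2.45 FPKM in mutant 2, against 4.85 FPKM in control 1 and 2.45 FPKM in control 2. Both number 1 libraries lay above both number 2 libraries, and the genotypes overlapped. klf2a, a Krüppel-like factor gene known in endothelium for its response to blood flow (ENSDARG00000042667, chromosome 22 from 16044380 to 16047079), had 5.42 and 5.71 FPKM in mutants 1 and 2, against 5.94 and 6.37 FPKM in controls 1 and 2. It was the only member tested whose genotypes did not overlap, which held in either direction for 24.8% of all genes tested. The deposited intervals of its 4 libraries did overlap.

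The remaining members varied little. ier2, an immediate early gene for a nuclear protein (ENSDARG00000086881, chromosome 11 from 31914385 to 31914898, a locus of 514 bp), had 16.4 and 13.0 FPKM in mutants 1 and 2, against 18.5 and 15.0 FPKM in controls 1 and 2. Both number 1 libraries lay above both number 2 libraries. gadd45ba, of the Gadd45 family of growth arrest and DNA damage genes (ENSDARG00000027744, chromosome 11 from 6538812 to 6540415), was the most abundant member on average, at 25.1 and 22.1 FPKM in mutants 1 and 2, against 25.0 and 26.9 FPKM in controls 1 and 2. Its lowest library, mutant 2, stood 1.21-fold below its highest, control 2.

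Ranked by mean FPKM over all genes tested, the members ran from the 24.5th percentile (atf3) to the 74.1st (gadd45ba). fosab stood at the 68.3rd, junbb at the 65.2nd and egr1 at the 28.1st. Their loci were compact. The median length of the 10 loci was 2009 bp, against 14150 bp for all genes tested, and 8 of the 10 were under 5 kb, as were 19.2% of all genes tested. fosab, jun and atf3 lie on chromosome 20, which held 4.10% of the genes tested.

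The series compared tbx1 mutants with controls, so the first question was whether the genotypes differed in these genes. No member passed a threshold of p by genotype. In limma, a linear model over all genes on log2(FPKM + 0.5), a scale that understates changes of low genes, 0 of the 9 members tested passed an adjusted p of 0.05, where 0.0669% of all genes did. At an unadjusted p of 0.05 the number of members was also 0, where 1.99% of all genes passed. The log2 differences, mutant minus control, were 0.32 for fosab (SE 0.763, 95% interval -1.69 to 2.32), 0.27 for junba (-2.00 to 2.55) and 0.16 for junbb (-1.09 to 1.42). The interval of atf3 ran from -1.08 to 2.30 around a difference of 0.61. These intervals are wide enough to hold a fold of 2 in either direction, so no absence of a difference can be read from them.

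Narrower intervals belonged to klf2a, gadd45ba, jun and ier2, which varied little within a genotype. klf2a had a difference of -0.13 (95% interval -0.38 to 0.11) and gadd45ba of -0.13 (-0.38 to 0.11). For jun the difference was 0.07 (-0.39 to 0.52) and for ier2 -0.18 (-0.60 to 0.23). egr1, at -0.02, had a wide interval (-1.08 to 1.04). Genotype was fitted alone, so differences between the library numbers count as spread in these intervals. For egr1, number 2 minus number 1 was -0.83 within mutants and -0.86 within controls. The adjusted p of all 9 members was 1.0 in limma. The median over the 9 was 0.066, with 5 above 0 and 4 below, against a median of 0.017 over all genes tested. The mutant values lay entirely below the control values for 1 member, klf2a, which held for 9.14% of all genes. Without mutant 1, the differences of fosab (-0.82), junba (-1.01), junbb (-0.53), jun (-0.17) and atf3 (-0.34) were below 0. Without mutant 2 they were 1.46 for fosab, 1.56 for junba, 0.85 for junbb, 0.31 for jun and 1.56 for atf3, and without control 2 those of junba (-0.003) and junbb (-0.05) were just below 0. The difference of egr1 was 0.41 without control 1 and 0.40 without mutant 2, against -0.45 without control 2 and -0.43 without mutant 1. Permuting 2 libraries against 2 exactly gives a p of 0.333 at the least.

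Mutant minus control was above 0 in number 1 and below 0 in number 2 for 6 of the 9 members. These were fosab, junba, junbb, atf3, jun and gadd45ba, and 22.5% of all genes tested had the same signs. Mutant 1 minus control 1 was 1.23 for fosab, 1.29 for junba, 0.64 for junbb and 1.74 for atf3 on the log2(FPKM + 0.5) scale. Mutant 2 minus control 2 was -0.59 for fosab, -0.74 for junba, -0.32 for junbb and -0.52 for atf3. In numbers 1 and 2, the differences were 0.26 and -0.13 for jun and 0.005 and -0.27 for gadd45ba. A pattern of more than 0.25 above in number 1 and more than 0.25 below in number 2 was found for 4 of the 9 members. These were fosab, junba, junbb and atf3, against 1.15% of all genes tested, and the cut was not among the planned settings. Each difference is a comparison of 1 library with 1 library, so the difference between the numbers could not be tested. For egr1 (-0.03 and -0.003), ier2 (-0.17 and -0.19) and klf2a (-0.12 and -0.15) the differences in number 1 and number 2 were close to each other.

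**Figure D2:**
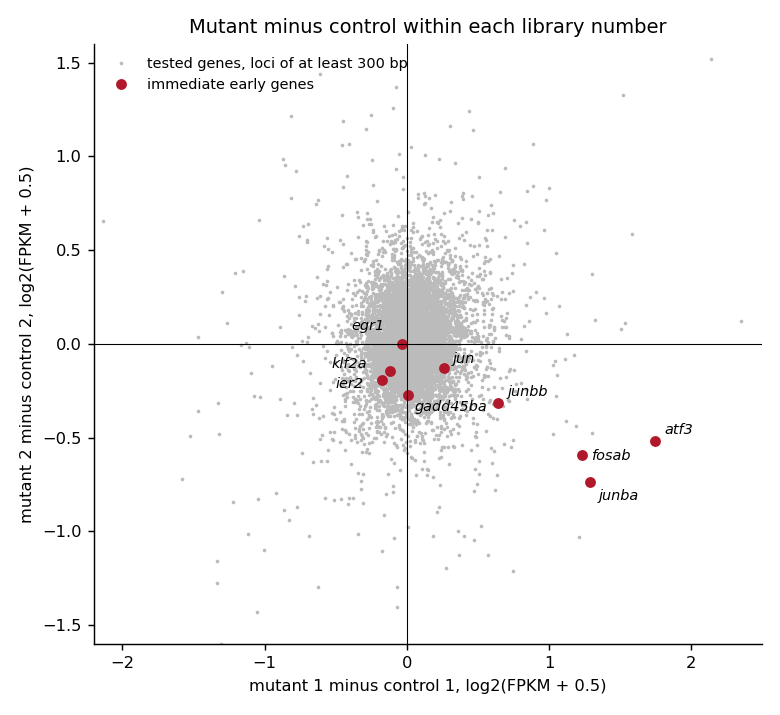
Mutant minus control difference of log2(FPKM + 0.5) within number 1 (horizontal) and within number 2 (vertical) for 13202 tested genes with loci of at least 300 bp (grey; 17 lie outside the plotted range) and for the 9 tested immediate early genes (red). fosab, junba, junbb and atf3 lie to the lower right, above 0 in number 1 and below 0 in number 2, away from most genes.

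Set by library number, 8 of the 9 members tested had lower fitted values in the libraries numbered 2 than in those numbered 1, though none passed over all genes with the settings used throughout. The 8 include gadd45ba, at only -0.04. Over all genes tested the median difference was -0.019, so lower values in number 2 were at least as common as higher ones. The exact share of all genes was not counted. egr1 averaged 2.45 ± 0.00431 FPKM in number 2 and 4.79 ± 0.0858 FPKM in number 1 (SD, n = 2 each). That is a log2 difference of -0.84 (SE 0.0827), with an interval of -1.06 to -0.62. Its p was 2.70e-04 before adjustment, and its adjusted p was 0.137 in limma. With loci under 300 bp left out (adjusted p = 0.0403 in limma) and with robust empirical Bayes (adjusted p = 0.0329 in limma), egr1 passed. Over the alternatives that left no library out, its adjusted p ran from 0.0329 to 0.222, and with 1 library left out from 0.280 to 0.485, in limma.

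fosab, junba and junbb had larger differences with wider intervals. fosab averaged 9.63 ± 2.90 FPKM in number 2 and 27.4 ± 15.9 FPKM in number 1 (SD, n = 2 each), a log2 difference of -1.37 (95% interval -2.57 to -0.16, adjusted p = 0.224 in limma). The log2 difference was -1.57 for junba (-2.88 to -0.25, adjusted p = 0.214 in limma) and -0.90 for junbb (-1.54 to -0.26, adjusted p = 0.184 in limma). ier2 had -0.31 (adjusted p = 0.216 in limma) and jun -0.28 (adjusted p = 0.262 in limma). atf3 (-0.77, adjusted p = 0.541 in limma) went in different directions within the genotypes, at -1.90 within mutants and 0.37 within controls. gadd45ba (-0.04) and klf2a (0.08) differed little.

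The number passing an adjusted p of 0.05 by library number was 0 of 9 members, against 0.0521% of all genes. At an unadjusted p of 0.05, 5 of 9 were lower in number 2, namely egr1, fosab, ier2, junba and junbb, against 9.47% of all genes lower and 19.4% in either direction. Number 2 lay entirely below number 1 for 6 of 9, these 5 and jun, against 28.7% of all genes. The members' median difference was -0.77, against -0.019 over all genes tested. That median is the value of atf3, which went in different directions within mutants (-1.90) and within controls (0.37). Part of the median rests on mutant 1: without that library the median was -0.39, fosab stood at -0.75, junba at -0.92 and junbb at -0.58, and atf3 at 0.11.

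**Figure D3:**
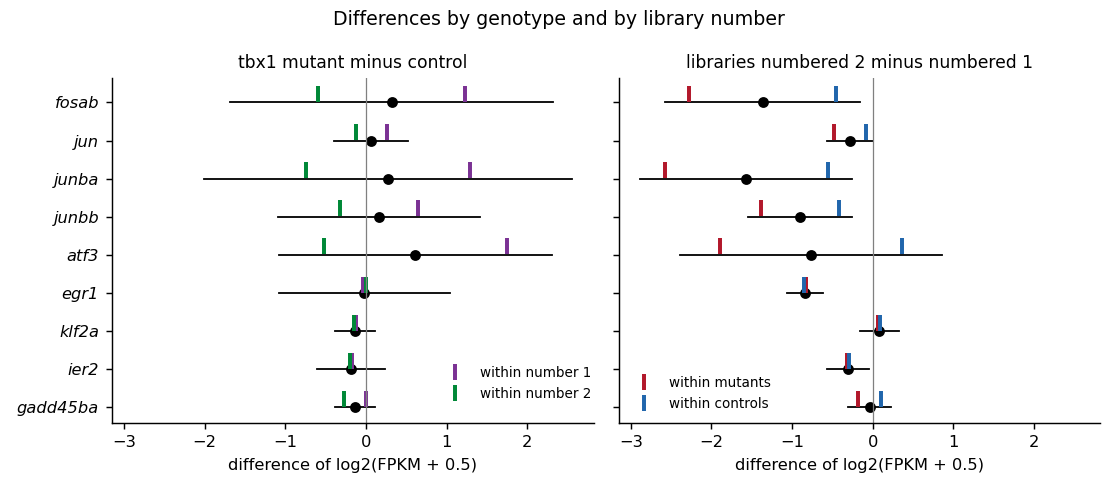
Difference of log2(FPKM + 0.5) for each tested immediate early gene, mutant minus control (left) and number 2 minus number 1 (right), as the limma estimate (dot) with its 95% interval (line). Coloured ticks are the differences between single libraries within a number or a genotype; for fosab, junba, junbb and atf3 those on the left fall on both sides of 0, while for egr1 all ticks on the right lie close to -0.84.

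Counted by library, mutant 1 was the one in which members stood apart upward. It exceeded each other library by more than 1.5-fold for 4 of 9 members (fosab, junba, junbb and atf3) and for 0.632% of all genes tested. Mutant 2 lay more than 1.5-fold below each other library for 2 of 9, fosab and junba, and for 0.491% of all genes. The count of members was 0 for mutant 1 below (0.394% of all genes), mutant 2 above (0.513%), control 1 above (0.379%) or below (0.402%) and control 2 above (0.409%) or below (0.506%) each other library. Mutant 1 was the highest and mutant 2 the lowest library for 5 members (these 4 and jun) and for 8.95% of all genes. A range of more than 1 on the log2 scale over the 4 libraries was found for the same 4 members, and for 2.97% of all genes. This count by library was laid out after the values had been seen.

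Summed levels of cell type markers also differed between the library numbers, and their part in these differences was not tested. Abundant genes weigh most in a sum, and of all single genes tested, 52.6% did not overlap between the numbers. Number 2 minus number 1 had a median of -0.019 over all genes tested, and the share in each direction was not counted. Tested markers higher and lower in number 2 were 6 and 2 for tailbud, 5 and 1 for paraxial mesoderm and 2 and 6 for periderm. For yolk syncytial layer and for blood and endothelium they were 1 and 5 each, for neural plate 4 and 3 and for myeloid cells 0 and 2. The summed level of 8 tailbud markers was 221 and 243 FPKM in mutant 2 and control 2, against 172 and 180 FPKM in mutant 1 and control 1. That of 7 paraxial mesoderm markers was 251 and 281 FPKM in number 2, against 215 and 219 FPKM in number 1. In the other direction, 8 periderm markers summed to 6633 and 6741 FPKM in number 2, against 7492 and 7738 FPKM in number 1. The sums of 7 yolk syncytial layer markers were 7013 and 7656 FPKM in number 2, against 8261 and 8962 FPKM in number 1. Those of 7 blood and endothelial markers were 136 and 132 FPKM in number 2, against 158 and 151 FPKM in number 1. Sums of 7 neural plate markers (546 and 525 FPKM in number 2, against 531 and 521 FPKM in number 1) and of 5 myeloid markers (7.60 and 6.67 FPKM, against 9.03 and 6.64 FPKM) overlapped between the numbers. In mutant 1, the highest library for fosab and atf3, the sum was lower than in control 1 for 4 of these 7 lists and higher for the blood and endothelial, neural plate and myeloid lists. mpeg1 was the only matched marker listed at 0 in all libraries.

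Genes of the same response were next described in 8 lists of related genes. Of 113 of these genes tested, 0 passed an adjusted p of 0.05 in limma in either comparison. At an unadjusted p of 0.05 the number was 2 by genotype, and by library number 21 were lower and 7 higher in number 2. Over all genes tested, 1.99% passed by genotype, and 9.47% were lower and 9.9% higher by library number. The median over the 113 was 0.034 by genotype and -0.080 by library number, against 0.017 and -0.019 over all genes tested. The share of all genes lower in number 2 was not counted, so counts of direction in the lists stand without it. In the list of other immediate early factors, 22 of 33 matched genes were tested, with a median of 0.053 by genotype. By library number 19 were lower and 3 higher in number 2 (median -0.182).

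**Figure D4:**
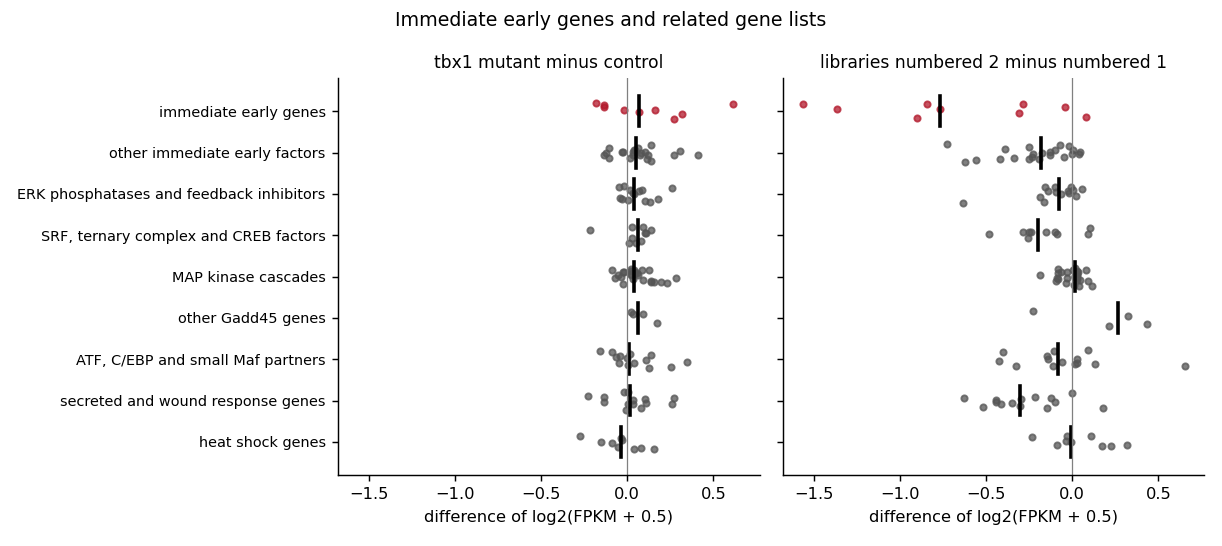
Difference of log2(FPKM + 0.5), mutant minus control (left) and number 2 minus number 1 (right), for the 9 tested immediate early genes (red) and the tested genes of 8 related lists (grey), with the median of each list as a bar. By library number the immediate early genes have a median of -0.77, the secreted and wound response genes of -0.30 and the other Gadd45 genes of 0.27.

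A further Fos gene, fosl1a, stood apart in mutant 1 as fosab did, with 3.77 and 0.890 FPKM in mutants 1 and 2, against 1.23 and 1.44 FPKM in controls 1 and 2. Lower in number 2 within both genotypes were the growth regulator genes myca (5.74 and 4.67 FPKM in mutant 2 and control 2, against 9.10 and 7.46 FPKM in mutant 1 and control 1) and btg1 (69.2 and 68.6 FPKM, against 81.2 and 80.4 FPKM). The log2 difference was -0.62 for myca and -0.23 for btg1, with an adjusted p of 0.164 and 0.142 in limma. zfp36l1a, which encodes an RNA-binding protein that promotes transcript decay, had -0.34, and ier5l -0.23. By genotype the lowest p-values of the list belonged to csrnp1b (log2 difference 0.12) and zfp36l1b (log2 difference -0.13). Below the level of testing, nr4a1, a nuclear receptor gene, was at 1.72 and 0.479 FPKM in mutants 1 and 2, against 0.811 and 0.456 FPKM in controls 1 and 2. The corresponding values of fosaa, present in the table as CU638738.1, were 0.913 and 0.125 FPKM in mutants and 0.282 and 0.293 FPKM in controls. nr4a1 and fosaa were chosen after their values were seen.

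Among 14 tested phosphatases and feedback inhibitors of ERK signalling, the median was 0.036 by genotype and -0.079 by library number. dusp5, a nuclear ERK phosphatase, was lower in number 2 within both genotypes, as egr1 was, with 3.55 and 3.63 FPKM in mutant 2 and control 2, against 6.39 and 5.35 FPKM in mutant 1 and control 1 (log2 difference -0.63, adjusted p = 0.143 in limma). dusp1, a phosphatase of the same wave, was abundant and nearly flat at 62.5 and 58.5 FPKM in mutants 1 and 2, against 62.2 and 58.3 FPKM in controls 1 and 2. spry2 had -0.19 and dusp7 -0.16 by library number, and dusp14 had 0.26 and dusp2 0.18 by genotype.

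Genes of the upstream kinases had medians near 0. The 26 tested genes of the MAP kinase cascades had a median of 0.041 by genotype and 0.014 by library number. Of these, the p38 kinase gene mapk14a had 0.11 by library number, mapk11 0.08, map2k4b -0.08 and mapk12a -0.19, while the Raf kinase gene araf, on chromosome 5 as tbx1 is, had 0.28 and mapk14b 0.15 by genotype. Of 10 tested genes for serum response factor, its partners and CREB factors, 8 were lower in number 2 (median -0.196). Among them were creb1a (-0.15), CREM (-0.48), the coactivator gene crebbpa (-0.25) and the ternary complex factor gene elk3 (-0.28). By genotype, elk1 had 0.09 and zgc:112054, whose RefSeq name is cremb, -0.22.

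Of 14 tested ATF, C/EBP and small Maf genes (median 0.010 by genotype and -0.082 by library number), cebpd had -0.40 by library number, the unfolded protein response gene xbp1 -0.14, ddit3 -0.33 and batf3 0.66. atf7b had 0.14 and atf7a 0.13 by genotype. The 4 other Gadd45 genes had a median of 0.061 by genotype and of 0.268 by library number. gadd45g was at 31.7 and 35.3 FPKM in mutant 2 and control 2, against 26.4 and 22.9 FPKM in mutant 1 and control 1 (log2 difference 0.43, adjusted p = 0.155 in limma). By library number gadd45bb had 0.32, gadd45ab 0.21 and gadd45aa -0.23, and by genotype gadd45bb had 0.17 and gadd45ab 0.09.

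Secreted and wound response genes had the lowest median of the related lists by library number, at -0.301 over 14 tested genes, 13 of them lower in number 2, and 0.017 by genotype. The matricellular gene ctgfa had 5.60 and 5.28 FPKM in mutant 2 and control 2, against 8.94 and 8.41 FPKM in mutant 1 and control 1 (log2 difference -0.63, adjusted p = 0.142 in limma). ptgs2a, a prostaglandin synthase gene, had -0.41, cyr61 -0.30 and the coagulation factor receptor gene f3a -0.44. socs3a, a feedback inhibitor of cytokine signalling, stood apart in mutant 1 at 3.09 FPKM, with 1.35 FPKM in mutant 2 and 1.72 and 1.59 FPKM in controls 1 and 2; it was chosen after its values were seen. By genotype its paralog socs3b had 0.27 and tnfb -0.23. Several inflammatory genes of the list were scarce. tnfa was listed at 0 in all libraries, and il1b was at 0.178 and 0.018 FPKM in mutants 1 and 2, against 0.158 and 0.362 FPKM in controls 1 and 2 (tnfa and il1b were chosen after their values were seen).

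Heat shock genes had medians near 0 in both comparisons, at -0.006 by library number and -0.039 by genotype over 9 tested genes. The abundant small heat shock gene hspb1 was at 3617 and 3642 FPKM in mutant 2 and control 2, against 3059 and 3158 FPKM in mutant 1 and control 1. hsf2 had 0.32, dnajb1b 0.17 and hspa5 -0.23 by library number, and by genotype hsp90aa1.2 had -0.28 and dnajb1b -0.15. hsp70l, a heat-inducible Hsp70 gene chosen after its values were seen, was at 0.458 and 0.361 FPKM in mutants 1 and 2, against 0.987 and 0.463 FPKM in controls 1 and 2. Its highest library was control 1.

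The genes most like junba, the member of widest range, were sought over all genes tested by the root mean square difference of their centred log2(FPKM + 0.5) values over the 4 libraries. The nearest was fosab, at a difference of 0.114. FP015791.1 (0.342), GGACT (3 of 3) (0.417), CABZ01085048.1 (0.420) and fosl1a (0.428) followed. junbb came 6th (0.429), atf3 9th (0.438) and egr1 78th (0.645) among all genes. With 4 libraries this is a description of these samples alone. Of the 85 genes that exceeded each other library by more than 1.5-fold in mutant 1, 52 had loci of at least 300 bp, and 2 of the 113 related genes, fosl1a and socs3a, were among them.

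**Figure D5:**
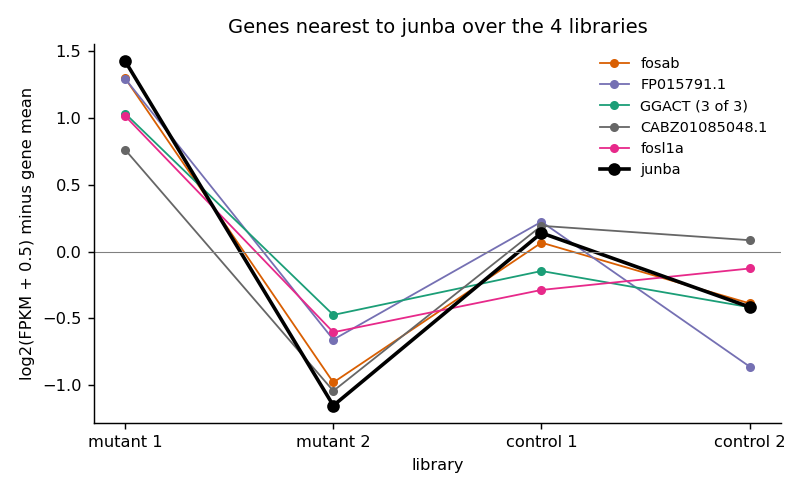
Centred log2(FPKM + 0.5) values in the 4 libraries for junba (black) and the 5 tested genes nearest to it (colours); lines join the values of 1 gene and stand for no order of the libraries. junba and fosab nearly coincide, highest in mutant 1 and lowest in mutant 2, and fosl1a has the same highest and lowest library.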

How the data were processed

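Per the file headers, the authors deposited 1 table of RPKM values per gene and library, with 95% bounds and an estimate status; a stray last line calls them FPKM. Tools in the submitters' processing notes are Cufflinks 2.1.1, Cuffdiff 2.0.2, TopHat and TopHat2 2.0.8, with the build danRer7 (Zv9); the sources used here do not say which of them made the values. Lower bounds are deposited as a signal in FPKM. The deposited values entered as log2(FPKM + 0.5), for the 13448 of 32538 genes with status OK in all 4 libraries and a mean of at least 1 FPKM.

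Genotype and library number were each fitted alone with limma 3.58.1 in R 4.3.3 (mean-variance trend, two-sided, Benjamini-Hochberg over all genes tested, threshold 0.05), and the fit was tested on simulated data. Members and lists were chosen with earlier results of these data known. Of 225 list entries, 196 gave a row of their own and 17 had no row; matching went by symbol, current symbol of the gene ID or RefSeq synonym. Named genes were all members, tbx1 and the 5 nearest to the member of widest range. From each list came the 4 genes of lowest p by library number and the 2 by genotype. fosl2 and jund are part of the Fos and Jun pools, fosl1b is named as left out, and marker genes at 0 are named. Only some untested genes among the other immediate early factors are named. socs3a, nr4a1, fosaa, tnfa, il1b and hsp70l were chosen after their values were seen. Alternatives were other pseudocounts, minimum levels and scalings, fits without trend, with robust empirical Bayes or with a block for the replicate number, and fits without each library in turn or without loci under 300 bp. Figures were drawn with matplotlib 3.10.9. Depth in reads is unknown.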

Additional observations from a re-analysis of the deposited data

Results flagged for a closer look

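For 4 members the mutant minus control difference had opposite signs in the libraries numbered 1 and 2, by more than 0.25 each way on the log2(FPKM + 0.5) scale. The difference in number 1 less that in number 2 was 2.26 for atf3, 2.02 for junba, 1.82 for fosab and 0.96 for junbb. The difference between the numbers was not tested, since each number holds 1 library per genotype.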

How the results depend on the processing

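Of the members, 0 passed by genotype under every alternative run. By library number, 1 passed with robust empirical Bayes and 1 with loci under 300 bp left out, egr1 in both cases, and 0 under the others. Over all genes, the calls by genotype numbered 9, against 16 with robust empirical Bayes and 28 to 39 with 1 library left out. Those by library number numbered 7, against 176 with robust empirical Bayes, 70 with loci under 300 bp left out and 32 to 39 with 1 library left out. The cause was not tested. With 1 library left out, the lone sample of its group is assumed to vary like the others. The members' median difference by library number was -0.77, against -0.31 at a mean of at least 5 FPKM, where egr1 and atf3 are no longer tested, and -0.84 to -0.39 with 1 library left out. By genotype that median ran from -0.34 to 0.40 with 1 library left out. With 1 library left out, the genotype difference ran from -0.34 to 1.56 for atf3, -0.82 to 1.46 for fosab, -0.17 to 0.31 for jun, -1.01 to 1.56 for junba and -0.53 to 0.85 for junbb, lowest without mutant 1 and highest without mutant 2. For egr1 it ran from -0.45 without control 2 to 0.41 without control 1. By library number, atf3 ran from -1.64 without control 1 to 0.11 without mutant 1, and gadd45ba from -0.18 without control 2 to 0.10 without mutant 2. With the replicate number as a block, the genotype fit called 9 genes and 0 members. In this balanced layout a block cannot change the differences (fosab 0.32), so their sameness is no check. No label says that the number pairs libraries; the deviations of mutant 1 and control 1 from their genotype means correlated at -0.005 across all genes tested and at 0.347 across loci of at least 300 bp. The count of 4 members above each other library in mutant 1 was 5 at a fold of 1.2, 3 at a fold of 2 and 4 after median-ratio rescaling. Over all 13448 genes tested the counts were 463, 45 and 82 in these settings, against 85 in the main one. These settings were chosen after seeing the data.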
